A study of Mus musculus with 12 samples.

Results

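The expression of 10 regulators and targets of the coactivators YAP and TAZ was described in 10T1/2 cells on collagen with and without aortic carboxypeptidase-like protein (ACLP). The genes were Yap1, Wwtr1, Tead1, Amotl1, Amotl2, Ajuba, Lats2, Ankrd1, Axl and Nuak2. Each was taken by its symbol from a table of 56748 genes, matched a single identifier and was among the 16465 genes counted well enough to be tested. 10T1/2 (CH310T1/2 in the labels) is an established mouse mesenchymal line, labelled WT. All 12 cultures were serum starved (0.5% FBS), passed 1 h in suspension, and then spent 18 h on 12 kPa plates whose coating was made from 0.05 mg/mL type I collagen. The col1 group had collagen alone, the col1-ACLP group had collagen polymerized with 30 nM recombinant ACLP, and the col1-ACLP+SB group had the same matrix with SB431542, an inhibitor of the TGFβ receptor kinase ALK5. Each group had 4 libraries, described by the study as biological replicates, and no group received SB431542 on collagen alone. An effect of the inhibitor in these data is therefore an effect in cells on ACLP.

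YAP (Yap1) and TAZ (Wwtr1) are coactivators that carry signals from cell shape, adhesion and actin tension to the nucleus, where they act through the DNA-binding TEAD factors. The LATS kinases of the Hippo pathway phosphorylate both proteins and hold them in the cytoplasm, angiomotins bind and retain them, and Ajuba restrains LATS. In fibroblasts the pathway is known for its response to matrix stiffness, which acts largely on the location of the proteins, a property that RNA levels do not report. Amotl2, Lats2, Ankrd1, Axl and Nuak2 are widely used as target genes, so that Amotl2 and Lats2 stand both upstream and downstream of YAP. In bulk RNA, fewer cells that express a gene and less of its RNA per cell cannot be told apart.

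TEAD factors bind an element with the core GGAATG, which reads CATTCC on the other strand. RefSeq promoter sequences (250 bases before to 50 after a start site, from a table on GRCm38.p6) matched 8 of the 10 genes, all but Tead1 and Nuak2, and each window was found once, letter for letter, in GRCm39. The core was present on either strand in at least 1 window of 7 of the 8 genes, against 16.6% of the 27025 genes in the table. No window of Amotl1 held it, and the start site of that window lies 30056 bases inside the gene as the count table draws it. The start sites of the 2 Lats2 windows also lie inside the gene, by 12265 bases for the window with the match and 23970 bases for the other, and that of Amotl2 by 1132 bases. Stretches of 30 bases around each match are shown, in capitals the core, so that the matches can be read beside the RNA values. Coordinates are GRCm39, with sequences read 5′ to 3′ on the strand of the gene.
Yap1, chr9:8004721-8004750, minus strand: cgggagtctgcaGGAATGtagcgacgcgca
Wwtr1, chr3:57483450-57483479, minus strand: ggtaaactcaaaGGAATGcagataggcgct
Ankrd1, distal, chr19:36097437-36097466, minus strand: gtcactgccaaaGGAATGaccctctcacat
Ankrd1, proximal, chr19:36097350-36097379, minus strand: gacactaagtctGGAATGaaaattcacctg
Amotl2, chr9:102594926-102594955, plus strand: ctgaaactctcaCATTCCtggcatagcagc
Ajuba, distal, chr14:54815287-54815316, minus strand: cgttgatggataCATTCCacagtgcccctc
Ajuba, proximal, chr14:54815265-54815294, minus strand: tgcccctccgcgCATTCCaactgtaaacaa
Lats2, chr14:57983559-57983588, minus strand: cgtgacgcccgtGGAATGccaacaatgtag
Axl, chr7:25488374-25488403, minus strand: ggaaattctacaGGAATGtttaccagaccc

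Counted from the RefSeq start site, the Amotl2 match lay at positions -65 to -60, the Axl match at -233 to -228, and the Lats2 match at 4 to 9 after one of 2 start sites. The Ankrd1 matches began at -210 and -123, and those of Ajuba at -186 and -164. Yap1, Wwtr1 and Ankrd1, which passed the test in none of the comparisons described here, held the core as well as Amotl2, Ajuba, Lats2 and Axl. Of 15 further YAP/TEAD target genes with a promoter in the table, 2 held it. The AP-1 element TGANTCA, searched on both strands, was in no window of the 8 genes, against 8.97% of all genes, and the CArG box of serum response factor was in none, against 1.81%. A match is a string of letters and not a measured binding site, and the absence of one says only that these letters are not in the window.

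Libraries held between 29246154 and 52201922 counts. Levels are given as CPM (each count as a share of the library's TMM-scaled total), and fold changes are log2 values from edgeR's quasi-likelihood test fitted to all 12 libraries, with the standard error and the Benjamini-Hochberg adjusted p over all genes tested. The defining fibroblast markers Col1a1, Col1a2, Col3a1, Pdgfra, Pdgfrb, Thy1 and Vim were all present, and their summed level ran from 33450 to 34620 CPM on col1, from 43380 to 52310 on col1-ACLP and from 40040 to 45630 on col1-ACLP+SB. The rise of the sum was carried by Col1a1, with means of 11900 (col1) and 20960 CPM (col1-ACLP), and Col1a2, at 7307 and 11490 CPM. Col3a1 had means of 8648 and 9094 CPM, whereas the means of Pdgfra (419.7 and 248 CPM), Pdgfrb (483 and 437 CPM) and Vim (5213 and 4903 CPM) were lower on col1-ACLP. Epcam, Cd3e and Adgre1 were at 0 counts in every library. The epithelial, endothelial, immune and adipocyte lists each summed to at most 10.04 CPM. Genes of these lists that were counted in every library included Cd68 (150 to 432 counts), Tek (130 to 314) and Cdh1 (62 to 146). Mean Tek was 6.45 CPM without ACLP, 8.87 CPM with it and 4.905 CPM with ACLP and the inhibitor. Mean Cd68 was 9.47, 6.73 and 8.05 CPM in the same order. The part of these genes in the results was not tested. Mitochondrially encoded genes took 2.39 to 2.98% of counts on col1, 2.00 to 2.21% on col1-ACLP and 2.10 to 2.88% on col1-ACLP+SB. The part of that difference in the results was not tested. The library of col1 replicate 2 stood apart from the other col1 libraries on the leading principal component of all tested genes, at -86.7 against -11.1 to -8.97, and member calls that change without it are given both ways.

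Between col1-ACLP and col1, Amotl2, Lats2 and Ajuba rose and Amotl1 fell, while Yap1, Wwtr1, Tead1, Axl, Nuak2 and Ankrd1 did not pass the test. That is 3 higher and 1 lower of 10, against 9.52% of all tested genes higher and 8.41% lower (17.9% in either direction). Among the 9159 genes with a mean of at least 10 CPM, the better background for all members but Ankrd1, 27.3% passed, against 4 of 9 members. The changes were small. None of the 10 passed the test and also exceeded 0.58 in log2 size, the threshold of the study's methods, which 4.97% of all genes did. Between col1-ACLP+SB and col1, Amotl2 and Lats2 rose and Amotl1 and Axl fell, 2 in each direction of 10, against 4.6% of genes higher and 4.54% lower (9.13% in either direction). Among genes with a mean of at least 10 CPM 14.2% passed, against 4 of 9 members. None of the 10 was beyond 0.58 with an adjusted p under 0.05 there, against 2.28% of genes.

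Between col1-ACLP+SB and col1-ACLP none of the 10 genes passed the test (edgeR), against 1.48% of all genes (0.571% higher and 0.905% lower, and 0.128% also beyond 0.58), and DESeq2 and limma-voom also called none of the 10. At an unadjusted p under 0.05 there were 3, Tead1, Ajuba and Axl, each with a lower estimate with the inhibitor, and 12.8% of all genes reached that level. The median log2 fold change of the 10 genes was 0.14 for col1-ACLP against col1, 0.032 for col1-ACLP+SB against col1 and -0.069 for col1-ACLP+SB against col1-ACLP, beside medians over all genes of -0.0099, 0.0046 and 0.0049. Both comparisons with col1 use the same 4 col1 libraries, so their estimates are not independent of each other.

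**Figure D1:**
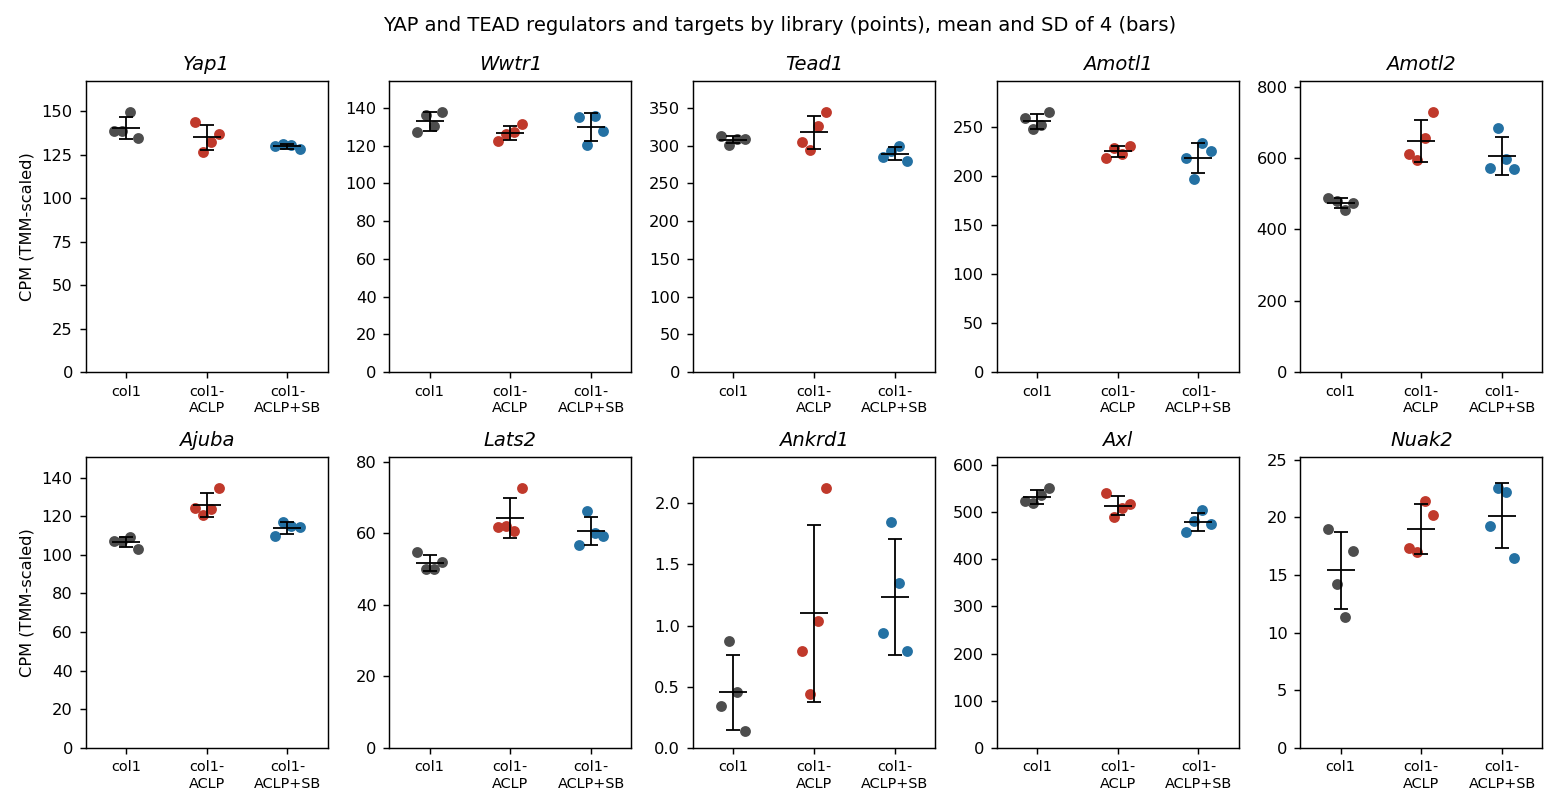
Level of each of the 10 genes (y axis, TMM-scaled CPM from 0) in each library (points) of the 3 groups (x axis), with the mean and SD of 4 libraries as bars. All col1-ACLP libraries lie above all col1 libraries for Amotl2, Ajuba and Lats2 and below them for Amotl1, and Ankrd1 stays under 2.2 CPM in every library.

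The coactivators themselves moved little. Yap1 (ENSMUSG00000053110, chromosome 9 from 7932000 to 8004597 on GRCm39) was at 138, 139, 149 and 135 CPM on col1, at 144, 127, 133 and 137 CPM on col1-ACLP, and at 129.7, 131, 131 and 128 CPM on col1-ACLP+SB, in the order of replicates 1 to 4. The col1-ACLP libraries overlapped the col1 libraries, whereas all 4 col1-ACLP+SB libraries lay below all 4 col1 libraries. The log2 fold change of Yap1 was -0.056 in col1-ACLP (95% interval -0.16 to 0.050, adjusted p = 0.538, edgeR) and -0.11 in col1-ACLP+SB (interval -0.22 to -0.0057, adjusted p = 0.217, edgeR). Wwtr1, which encodes TAZ (ENSMUSG00000027803, chromosome 3 from 57363070 to 57483331), was at 127, 136, 131 and 138 CPM on col1, at 122, 126, 127 and 131 CPM on col1-ACLP, and at 135, 120.4, 136 and 128 CPM on col1-ACLP+SB. The 3 groups of Wwtr1 values overlapped. Its log2 fold changes were -0.068 (interval -0.18 to 0.039) and -0.033 (interval -0.14 to 0.074), with adjusted p of 0.438 and 0.808 (edgeR). For both genes the intervals against col1 leave room for a fall of at most 0.22 on the log2 scale and a rise of at most 0.074.

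Tead1, the TEAD factor with the most RNA in these cells (ENSMUSG00000055320, chromosome 7 from 112278525 to 112506014), was at 312, 301, 308 and 309 CPM on col1. On col1-ACLP it was at 305, 294, 327 and 344 CPM, a spread wide enough to contain the col1 values. On col1-ACLP+SB it was at 285, 293, 299 and 279.7 CPM, below every col1 library. Its estimate, a log2 fold change, was 0.045 in col1-ACLP (standard error 0.048, adjusted p = 0.62, edgeR), where library size alone in place of TMM gave -0.0067, and -0.090 in col1-ACLP+SB (adjusted p = 0.315, edgeR). Against col1-ACLP, the inhibitor group had a Tead1 estimate of -0.135 (interval -0.23 to -0.035, unadjusted p = 0.0103 and adjusted p = 0.192, edgeR).

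Amotl2 was the member with the strongest test result. It encodes an angiomotin that binds YAP at junctions and actin and is itself a YAP target (ENSMUSG00000032531, chromosome 9 from 102593871 to 102610617). The col1 libraries held 488, 480.3, 453 and 473 CPM of it, the col1-ACLP libraries 612, 594, 655 and 728 CPM, and the col1-ACLP+SB libraries 572, 683, 598 and 569 CPM. Every library with ACLP was above every col1 library, and the libraries of the 2 groups with ACLP overlapped. The log2 fold change was 0.45 in col1-ACLP (standard error 0.059, adjusted p = 2.5e-06, edgeR), a rise of 36.7%, and 0.35 in col1-ACLP+SB (standard error 0.059, adjusted p = 1.37e-04, edgeR), a rise of 27.8%. The 2 groups with ACLP differed by -0.097 (interval -0.22 to 0.025, adjusted p = 0.555, edgeR), so that a loss of more than 0.22 on the log2 scale with the inhibitor lies outside the interval. Both rises passed the test in all 20 alternatives.

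Amotl1, the other broadly expressed angiomotin, went the opposite way (ENSMUSG00000013076, chromosome 9 from 14453262 to 14556352). It was at 259.6, 248, 252 and 265 CPM on col1, at 219, 229, 223 and 231 CPM on col1-ACLP, and at 218, 197, 234 and 225 CPM on col1-ACLP+SB. All libraries with ACLP were below all col1 libraries. For Amotl1 the log2 fold change was -0.19 in col1-ACLP (standard error 0.051, adjusted p = 0.0101, edgeR) and -0.23 in col1-ACLP+SB (standard error 0.051, adjusted p = 0.00302, edgeR), and both passed in all 20 alternatives. Amotl1 RNA fell by 12.1% in the first and fell by 14.7% in the second. Per kilobase of gene length, Amotl2 RNA was 2.96 ± 0.118 times Amotl1 RNA on col1 (SD, n = 4), 4.59 ± 0.379 times with ACLP and 4.47 ± 0.724 times with ACLP and the inhibitor. The ratio ran from 2.85 to 3.1 on col1 and from 4.04 to 5.55 over the 8 libraries with ACLP, without overlap. This ratio was taken up after the values had been seen and carries no test.

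Ajuba encodes a LIM protein that binds LATS kinases and limits their activity (ENSMUSG00000022178, chromosome 14 from 54804929 to 54815015). The col1 libraries stood at 107, 107, 109 and 103 CPM, and the col1-ACLP libraries, without overlap, at 124, 120.4, 124 and 135 CPM. On col1-ACLP+SB it was 109.6, 117, 115 and 114 CPM, above every col1 library and below every col1-ACLP library. The rise in col1-ACLP was 0.24 on the log2 scale (standard error 0.051, adjusted p = 0.00115, edgeR) and passed in all 20 alternatives. In col1-ACLP+SB the estimate was 0.098 (interval -0.0068 to 0.20, adjusted p = 0.294, edgeR), which passed in none of 20. The direct difference between the 2 groups with ACLP was -0.14 (interval -0.25 to -0.036, unadjusted p = 0.0103), with an adjusted p of 0.192 over all genes (edgeR). A difference of the Ajuba response between the cultures with and without inhibitor is thus not shown at that threshold.

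Lats2 encodes 1 of the 2 kinases that inactivate YAP and TAZ and is also induced by them (ENSMUSG00000021959, chromosome 14 from 57927119 to 57995845). It was at 54.8, 49.9, 49.9 and 52.1 CPM on col1, at 61.8, 62.0, 60.6 and 72.7 CPM on col1-ACLP, and at 56.9, 66.2, 60.2 and 59.3 CPM on col1-ACLP+SB. All libraries with ACLP were above all col1 libraries. In col1-ACLP the log2 fold change was 0.31 (standard error 0.069, adjusted p = 0.00164, edgeR), a rise of 24.2% that passed in all 20 alternatives. In col1-ACLP+SB it was 0.23 (standard error 0.069, adjusted p = 0.0341, edgeR), and this call held in 12 of 20 alternatives. The adjusted p (edgeR) rose to 0.0822 without col1 replicate 2, to 0.098 without col1 replicate 3, to 0.0668 without col1 replicate 4, and to 0.12, 0.0619 and 0.0537 without col1-ACLP+SB replicates 2, 3 and 4. It was 0.0538 with library size alone and 0.051 with a replicate block. The estimate stayed between 0.19 and 0.26 over the 20 alternatives, and the 2 groups with ACLP differed by -0.084 (interval -0.23 to 0.058, adjusted p = 0.704, edgeR).

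**Figure D2:**
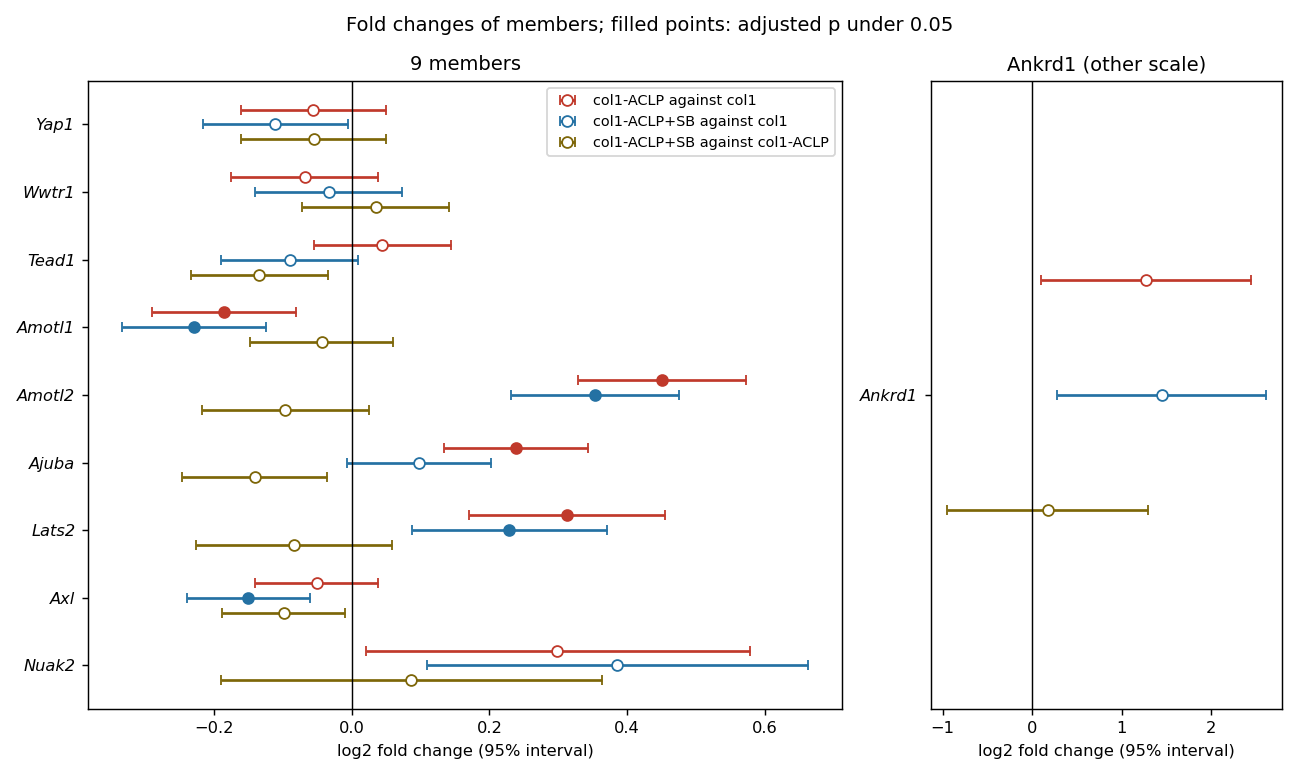
Log2 fold change (x axis) of each gene with its 95% interval in the 3 comparisons, coloured by comparison, with filled points where the adjusted p was under 0.05. Ankrd1 is drawn on its own, wider scale. Amotl2 and Lats2 lie to the right of 0 and Amotl1 to the left in both comparisons with col1, and no point is filled in the comparison of the 2 groups with ACLP.

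Among the target genes, Axl, a receptor tyrosine kinase for Gas6, was at 523, 519, 536 and 552 CPM on col1 (ENSMUSG00000002602, chromosome 7 from 25456698 to 25488130). On col1-ACLP it was at 539.9, 491, 508 and 517 CPM, overlapping col1, and on col1-ACLP+SB at 459, 482, 504 and 474 CPM, below every col1 library. The Axl estimate on the log2 scale was -0.051 in col1-ACLP (adjusted p = 0.497, edgeR) and -0.15 in col1-ACLP+SB (standard error 0.043, adjusted p = 0.0272, edgeR), where Axl RNA fell by 9.86%. The second call held in 15 of 20 alternatives. Its adjusted p (edgeR) was 0.0711 without col1 replicate 3, 0.102 without col1 replicate 4, 0.108 without col1-ACLP+SB replicate 1, 0.0742 without col1-ACLP+SB replicate 4 and 0.054 with no filter on low counts. The 2 groups with ACLP differed in Axl by -0.099 (interval -0.19 to -0.0094, adjusted p = 0.322, edgeR), so the inhibitor group is not shown to differ from col1-ACLP.

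Nuak2, a kinase of the AMPK family that acts on actomyosin, was at 19.0, 14.2, 11.3 and 17.0 CPM on col1 (ENSMUSG00000009772, chromosome 1 from 132243864 to 132261226). It was at 17.3, 17.0, 21.4 and 20.2 CPM on col1-ACLP and at 19.3, 22.6, 22.2 and 16.5 CPM on col1-ACLP+SB. The col1 values were the widest spread relative to their mean of the 9 well counted members, and the groups overlapped. The log2 fold change of Nuak2 was 0.30 in col1-ACLP (interval 0.021 to 0.58, adjusted p = 0.14, edgeR) and 0.39 in col1-ACLP+SB (interval 0.11 to 0.66, adjusted p = 0.0763, edgeR). Without col1 replicate 1, the highest of the col1 libraries, the adjusted p (edgeR) was 0.0425 and 0.0224. For col1-ACLP+SB it was also under 0.05 without col1-ACLP+SB replicate 4 (0.035) and with no filter on low counts (0.0133).

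Ankrd1, an ankyrin repeat protein of muscle and stressed cells and a widely used YAP target, was barely expressed in these cultures (ENSMUSG00000024803, chromosome 19 from 36089361 to 36097499). Its counts were 13, 33, 15 and 6 on col1, 26, 16, 31 and 60 on col1-ACLP, and 33, 55, 70 and 24 on col1-ACLP+SB. In CPM that is 0.339, 0.874, 0.455 and 0.140 on col1, 0.794, 0.442, 1.03 and 2.13 on col1-ACLP, and 0.940, 1.85, 1.35 and 0.794 on col1-ACLP+SB. The highest col1 library was replicate 2, and its value lay above 2 of the 4 col1-ACLP values. Ankrd1 had a fitted log2 difference of 1.27 in col1-ACLP (standard error 0.57, interval 0.098 to 2.45, adjusted p = 0.137, edgeR) and 1.45 in col1-ACLP+SB (interval 0.28 to 2.62, adjusted p = 0.129, edgeR). Without col1 replicate 2 the estimates were 1.82 and 1.99, with adjusted p of 0.0373 and 0.0366 (edgeR), so that Ankrd1, whose estimate was beyond 0.58 with and without that library, then also passed the test. Over the 20 alternatives the estimate ran from 0.74 to 1.82 and from 1.14 to 1.99. With all 12 libraries no change of Ankrd1 is shown. A lncRNA on the other strand overlaps 3639 bases of Ankrd1 and had a mean of 3.08 counts, beside 31.8 for Ankrd1, and its part in the Ankrd1 counts was not tested.

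Muscle genes were looked at beside Ankrd1, since muscle is its best known source. Myod1 and Myog, which define skeletal muscle cells, were at 0 counts in every library, and Ckm had 2 counts in all. The summed level of Myod1, Myog, Ckm, Tnnt2 and Myh6 ran from 0.558 to 0.820 CPM on col1, from 1.38 to 2.49 on col1-ACLP and from 1.23 to 2.41 on col1-ACLP+SB. Tnnt2 had means of 0.274, 1.52 and 1.09 CPM in the 3 groups, and Myh6 of 0.438, 0.469 and 0.467 CPM. The part of these genes in the Ankrd1 values was not tested.

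All 4 libraries of one group were beyond all 4 of the other for 4 of the 10 genes in col1-ACLP against col1 (Amotl2, Ajuba and Lats2 higher, Amotl1 lower), where 21.2% of all tested genes did the same, 10.9% higher and 10.3% lower, and 30.8% of genes with a mean of at least 10 CPM. In col1-ACLP+SB against col1 the libraries did not overlap for 7 of the 10, against 13% of all genes (6.7% higher and 6.32% lower) and 18.4% of genes with a mean of at least 10 CPM. Those 7 were Amotl2, Ajuba and Lats2 above col1, and Yap1, Tead1, Amotl1 and Axl below it. In the comparison of the 2 groups with ACLP the libraries of Ajuba alone did not overlap, 1 of 10 against 8.17% of genes (3.65% higher and 4.52% lower).

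Levels of different genes were compared per kilobase of gene length, as FPKM from the TMM-scaled counts. On col1, Axl was the most abundant at 106 ± 2.96 FPKM (SD, n = 4), followed by Amotl2 at 75.3 ± 2.37, Ajuba at 29.2 ± 0.706, Wwtr1 at 27.8 ± 1.04, Amotl1 at 25.5 ± 0.772, Tead1 at 22.7 ± 0.345, Yap1 at 15.2 ± 0.688, Lats2 at 7.42 ± 0.334, Nuak2 at 3.93 ± 0.852 and Ankrd1 at 0.157 ± 0.107. Neighbours in this order were separated in all 4 libraries, with the exception of Ajuba and Wwtr1. On col1-ACLP Amotl2 drew level with Axl, at 103 ± 9.50 and 102 ± 4.07 FPKM with overlapping libraries, and on col1-ACLP+SB they were at 96.3 ± 8.51 and 95.3 ± 3.74. Tead1 and Amotl1 also overlapped in both groups with ACLP. The rest of the order of means, with Ajuba ahead of Wwtr1 and Yap1, Lats2, Nuak2 and Ankrd1 in the last places, was the same in the 3 groups. On col1 the libraries of Ajuba and Wwtr1 overlapped.

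Within families, the paralogs that are not among the 10 genes were added for scale. Wwtr1 made up 64.7 ± 1.61% of the YAP and TAZ RNA on col1 in FPKM, 64.6 ± 1.59% with ACLP and 65.9 ± 1.35% with ACLP and the inhibitor. Tead1 made up 54.2 ± 1.85% of TEAD RNA on col1, Tead2 29.9 ± 1.45%, Tead3 11.6 ± 1.15% and Tead4 4.30 ± 1.24% (SD, n = 4). The TEAD sum was 41.9 ± 2.00, 42.3 ± 2.31 and 40.3 ± 1.61 FPKM in the 3 groups. Lats1 held 71.2 ± 1.06% of LATS RNA on col1, and the LATS sum went from 25.8 ± 1.34 FPKM on col1 to 29.9 ± 0.999 with ACLP and 27.9 ± 0.858 with ACLP and the inhibitor. Amotl2 held 72.2 ± 0.570% of angiomotin RNA on col1 and 80.2 ± 1.36% on col1-ACLP.

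Of these paralogs, Tead4 rose in col1-ACLP, by 0.82 on the log2 scale (standard error 0.19, adjusted p = 0.00247, edgeR), from col1 values of 8.41, 3.81, 8.07 and 5.93 CPM to 12.4, 10.3, 13.1 and 10.6 CPM. In col1-ACLP+SB it was at 8.57, 11.4, 7.33 and 9.10 CPM, overlapping col1. The Tead4 estimate was then 0.47 (adjusted p = 0.144, edgeR), and against col1-ACLP it was -0.35 (adjusted p = 0.45, edgeR). Tead2 and Tead3 had estimates of -0.16 and -0.14 in col1-ACLP (adjusted p = 0.119 and 0.366, edgeR), and Tead2 passed with library size alone (-0.21, adjusted p = 0.0313). Lats1 rose in col1-ACLP by 0.17 (standard error 0.055, adjusted p = 0.0297, edgeR) and had an estimate of 0.064 in col1-ACLP+SB (adjusted p = 0.599, edgeR). The Lats1 call held in 13 of 20 alternatives. It was lost with library size alone (adjusted p = 0.131, edgeR), without col1 replicate 1, 2 or 3 (0.0505, 0.0664 and 0.122) and without col1-ACLP replicate 2, 3 or 4 (0.0557, 0.107 and 0.0514). Amot, the founding angiomotin, named here after its value had been seen, fell in col1-ACLP by 0.30 on the log2 scale (adjusted p = 0.0275, edgeR), a call that held in 15 of 20 alternatives and was lost without col1 replicate 1, 2 or 3 or col1-ACLP replicate 2 or 4 (adjusted p from 0.0651 to 0.0995, edgeR).

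**Figure D3:**
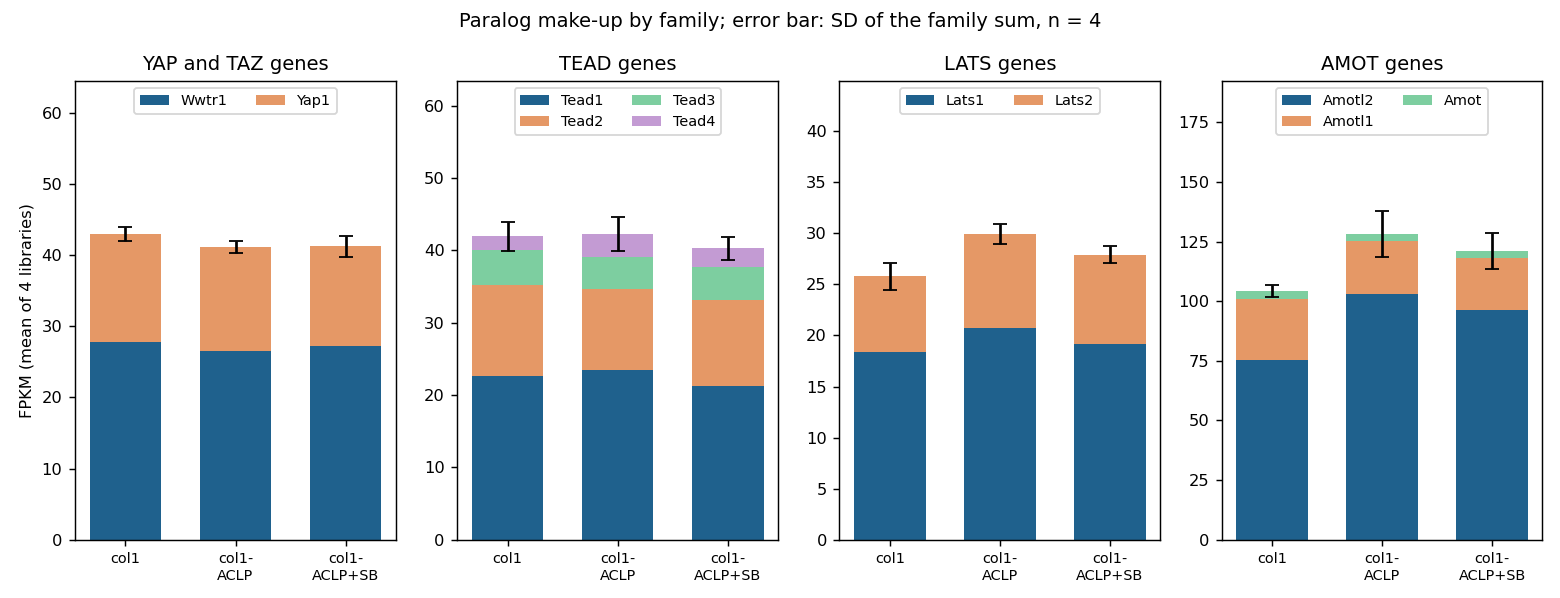
Mean FPKM (y axis, from 0) of the paralogs in 4 families, stacked by gene for each group (x axis), with the SD of the family sum over 4 libraries. The YAP and TAZ bars and the TEAD bars are nearly level across groups, whereas the angiomotin bar is higher with ACLP, where Amotl2 makes up 80.2% of the sum on col1-ACLP.

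The wider pathway was described with a list of 40 other Hippo pathway genes (kinases, scaffolds, upstream cadherins, TEAD cofactors and phosphatase subunits), of which 38 were tested. In col1-ACLP against col1, 8 were higher and 6 lower at an adjusted p under 0.05 (edgeR), 21.1% and 15.8%, against 9.52% and 8.41% of all genes and 14.8% and 12.5% of genes with a mean of at least 10 CPM. With library size alone in place of TMM, which moved the median of all genes by -0.050, the split was 4 higher and 10 lower. With TMM, 4 were higher without col1 replicate 2 or without col1-ACLP replicate 4, and 5 without col1 replicate 1 or col1-ACLP replicate 2. The higher genes that passed in all 20 alternatives were Tead4, the cadherin Fat1 at 0.54, Wwc2 at 0.24 and the TEAD cofactor Vgll3 at 0.27. The LATS cofactor Mob1a at 0.17 and Fbxw11 at 0.19 passed in 15 of 20, and the scaffold Nf2 at 0.16 in 13 of 20. All 3, like Lats1, were lost without col1 replicate 2 (adjusted p = 0.0657, 0.108 and 0.0677, edgeR), without col1-ACLP replicate 4 (0.0558, 0.0746 and 0.0835) and with library size alone (0.123, 0.138 and 0.139). The median log2 fold change of the list was -0.022, beside -0.0099 for all genes. The genes of the list that passed the test and were also beyond 0.58 in size were Tead4 and Rassf2. Rassf2, a scaffold that binds the MST kinases, fell by 0.94 on the log2 scale (standard error 0.21, adjusted p = 0.00237, edgeR) from 6.30 ± 1.64 to 3.29 ± 0.610 CPM. In col1-ACLP+SB 1 gene of the list was higher and 5 were lower than in col1, against 4.6% and 4.54% of all genes and 7.14% and 7.03% of those with a mean of at least 10 CPM. The higher gene was Fat1, at 0.25 (adjusted p = 0.00408, edgeR), and the lower ones were Frmd6, Fat4, Vgll4, Limd1 and Ptpn14, at -0.38, -0.42, -0.49, -0.31 and -0.19. Frmd6, Fat4, Vgll4 and Limd1 were also lower in col1-ACLP than in col1, at -0.35, -0.41, -0.57 and -0.24, where Ptpn14 had an estimate of -0.069 and did not pass. The Ptpn14 call was lost without col1 replicate 3 or col1-ACLP+SB replicate 4 (adjusted p = 0.0591 and 0.0534, edgeR). Fat1 was also the gene of the list that was lower with the inhibitor than on col1-ACLP, by 0.30 on the log2 scale (adjusted p = 0.00596, edgeR). That is 2.63% of the list, against 0.905% of all genes lower and 1.59% of those with a mean of at least 10 CPM. These genes other than Tead4 and Rassf2 were named after their values had been seen.

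Of 22 other YAP/TEAD target genes, 20 were tested. In col1-ACLP against col1, 5 were higher and 2 lower, 25% and 10%, and in col1-ACLP+SB against col1, 4 were higher and 3 lower, 20% and 15%. The shares of all genes were 9.52% and 8.41% in the first comparison and 4.6% and 4.54% in the second, and those of genes with a mean of at least 10 CPM were 14.8% and 12.5%, and 7.14% and 7.03%. The median log2 fold change of the list was 0.079 and 0.024 in these comparisons. In col1-ACLP 1 gene was lower without any 1 of the col1-ACLP libraries, without col1 replicate 2 or 4, or without col1-ACLP+SB replicate 1, 3 or 4, and 8 were higher without col1-ACLP+SB replicate 2. Arhgap29 was near the threshold, at -0.15 (adjusted p = 0.0467, edgeR), and passed in 9 of 20 alternatives. Ccn2 (connective tissue growth factor) was at 44.4, 49.5, 42.4 and 54.7 CPM on col1, at 112, 119.6, 125 and 173 CPM on col1-ACLP, and at 105, 119, 113 and 88.4 CPM on col1-ACLP+SB. The estimates for Ccn2 were 1.47 on the log2 scale in col1-ACLP (standard error 0.11, adjusted p = 1.25e-10, edgeR) and 1.15 in col1-ACLP+SB (adjusted p = 2.16e-08, edgeR). In col1-ACLP+SB against col1-ACLP the Ccn2 estimate was -0.315 (interval -0.53 to -0.098, adjusted p = 0.149, edgeR). That difference passed in 1 of 20 alternatives, with no filter on low counts (adjusted p = 6.5e-05, edgeR).

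Ccn1, the other matricellular gene of the CCN family that is widely used as a YAP readout, rose far less. It was at 465, 545, 463 and 498 CPM on col1, at 539.5, 526, 656 and 674 CPM on col1-ACLP, and at 532, 695, 578 and 498 CPM on col1-ACLP+SB, with overlap in each comparison. The Ccn1 estimate was 0.28 on the log2 scale in col1-ACLP (standard error 0.084, adjusted p = 0.0185, edgeR) and 0.225 in col1-ACLP+SB (adjusted p = 0.104, edgeR). The first call held in 15 of 20 alternatives and was lost with DESeq2 (adjusted p = 0.0957) and without col1 replicate 1 or 3 or col1-ACLP replicate 3 or 4 (adjusted p from 0.0613 to 0.0823, edgeR). For col1-ACLP+SB, Ccn1 passed with no filter on low counts (adjusted p = 3.96e-04, edgeR) and without col1-ACLP+SB replicate 4 (0.0326). Ccdc80, a secreted matrix-binding protein, rose by 0.96 in col1-ACLP (adjusted p = 1.83e-11, edgeR), from 87.0 ± 4.89 to 169 ± 17.1 CPM. It was lower with the inhibitor than on col1-ACLP, by 0.40 on the log2 scale (adjusted p = 0.00104, edgeR), at 128 ± 5.98 CPM, and was the gene of the list that passed in that comparison. That is 5% of the targets tested, against 0.905% of all genes lower and 1.59% of genes with a mean of at least 10 CPM. The other higher genes were Gadd45b and Rbms3, at 0.49 and 0.43 in col1-ACLP. The lower ones were Crim1 and Arhgap29 in both comparisons with col1. Crim1 was at -0.40 and -0.45 (adjusted p = 3.71e-06 and 1.11e-06, edgeR) and passed in all 20 alternatives in both. Arhgef17 was also lower in the second, a call that held in 9 of 20 alternatives (adjusted p up to 0.152 without col1 replicate 3, edgeR). Arhgap29 in the second was lost without col1 replicate 4 (0.0614). These 5 genes, and those listed next, were named after their values had been seen. The targets Myc, Birc5, Tgfb2, F3, Foxf2, Fjx1, Nt5e, Myof, Asap1, Dock5, Gadd45a and Tnfrsf12a passed in neither comparison with col1.

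**Figure D4:**
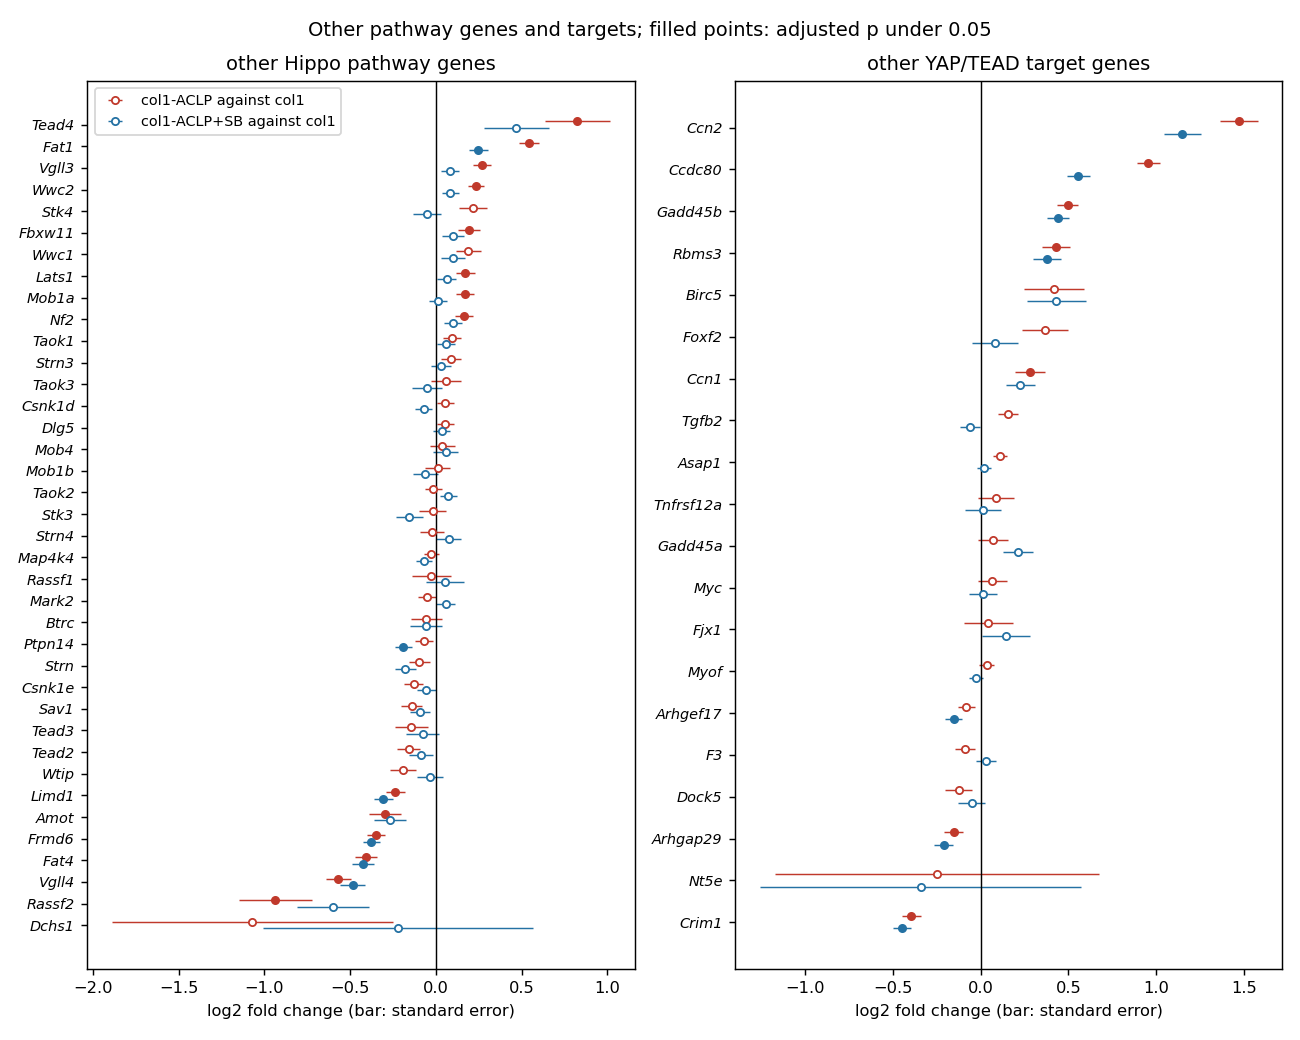
Log2 fold change (x axis) with its standard error for 38 other Hippo pathway genes and 20 other YAP/TEAD target genes (y axis, ordered by the estimate in col1-ACLP), for col1-ACLP (red) and col1-ACLP+SB (blue) against col1, with filled points at an adjusted p under 0.05. Both panels spread to both sides of 0, and Ccn2, at 1.47, lies farthest to the right.

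A list of 9 target genes of serum response factor, the other main actin-linked transcription factor, was counted for comparison. Of its 8 tested genes, 1 was higher and 1 lower in col1-ACLP than in col1, Acta2 and Fhl2, or 12.5% in each direction against 9.52% and 8.41% of all genes (14.8% and 12.5% of genes with a mean of at least 10 CPM). Acta2, smooth muscle actin, rose by 1.18 on the log2 scale (adjusted p = 5.57e-14, edgeR), with col1 libraries at 499, 467.5, 507 and 538 CPM and the lowest col1-ACLP library at 1058 CPM. In col1-ACLP+SB 1 was higher and 1 lower than in col1, Acta2 and Vcl, against 4.6% and 4.54% of all genes (7.14% and 7.03% of genes with a mean of at least 10 CPM). With the inhibitor, Acta2 was the gene of this list that differed from col1-ACLP, with an estimate of -0.245, lower with the inhibitor (adjusted p = 0.0226, edgeR), against 0.571% of all genes higher and 0.905% lower. That call was lost without col1-ACLP replicate 4 (adjusted p = 0.0864, edgeR) or col1-ACLP+SB replicate 4 (0.0878). The Vcl call was lost without col1 replicate 3 or 4 or col1-ACLP+SB replicate 2 (adjusted p = 0.0631, 0.104 and 0.0767, edgeR). Fhl2 and Vcl were named after their values had been seen. Tagln was not tested, with at most 17 counts in any library.

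The pattern of Amotl2, the member with the largest change among those that passed in col1-ACLP, was compared with every other tested gene over the 12 libraries. The measure was the root mean square difference of log2 CPM after each gene was centred on its own mean, on which Amotl2 itself spread by 0.213. The nearest genes were Creb3l1 at 0.047, Serpinh1 at 0.054, Impdh1 at 0.055, Sars at 0.059 and Lonp1 at 0.061. Their log2 fold changes ran from 0.40 to 0.47 in col1-ACLP and from 0.31 to 0.41 in col1-ACLP+SB, beside 0.45 and 0.35 for Amotl2. The genes were picked by closeness over these same libraries, so similar fold changes follow from the choice.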

How the data were processed

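RNA of 12 libraries of 10T1/2 cells, 4 per group, was sequenced by a commercial provider as paired-end poly(A) libraries, and reads were mapped with HISAT2. The deposited table holds raw counts, which the authors had not normalized. The study's methods name GRCm39 and the labels mm10. Coordinates of the table are GRCm39, with the same chromosome and at least 1 identical gene end as in a GRCm39 annotation for 76.7% of 56017 shared identifiers. The counting tool, its strand setting and the handling of reads on several genes are not given in the sources used here. Gene lengths are those of the deposited table.

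Counts were fitted in R 4.3.3 with edgeR 4.0.16 (filterByExpr, TMM, glmQLFit and glmQLFTest, 1 mean per group, all 12 libraries), with Benjamini-Hochberg adjustment over 16465 genes. A gene passed at an adjusted p under 0.05, and the size threshold was 0.58. Alternatives were RLE factors, library size alone, no filter, a mean of at least 10 counts, DESeq2 1.42.0, limma-voom (limma 3.58.1), fits of 2 groups, a replicate block, and each library left out in turn. The biological coefficient of variation was 0.153, and intervals cover the spread between libraries. Replicate pairs differed by more than counting noise (chi-square over its degrees of freedom, 7.22 to 19.5), so none was a duplicate. Deviations of same-numbered libraries from their group means correlated between -0.037 and 0.036, which gives no pairing.

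The procedure was tested on simulated counts with known changes. A bar for the share of changed genes recovered, set over all expression levels, was missed in all 3 comparisons. Nearly all missed genes had low counts, recovery was then split by expression level, and the procedure was kept. Recovery was not split by size of change. It therefore does not show how often changes as small as those called in the members would be missed, at any expression level. In the simulation, changes of genes with low counts, such as Ankrd1 has, were often missed. Members and lists were chosen with earlier results of these data known. The text names the 10 members, fixed paralogs (Lats1, Tead2 to Tead4), Ccn1, Ccn2, Acta2 and Tagln, genes of the lists past both thresholds, the 5 genes nearest in pattern, and others where it says so.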

Additional observations from a re-analysis of the deposited data

Results flagged for a closer look

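Of 30 groups of 4 libraries examined (10 genes in 3 groups), 1 held a library far from the rest by Dixon's test at the 95% level, which chance gives in about 1 of 20 groups. Lats2 in col1-ACLP replicate 4 was at 72.7 CPM, with the other col1-ACLP libraries between 60.6 and 62.0 CPM. Without this library the log2 fold change of Lats2 in col1-ACLP against col1 was 0.25 (adjusted p = 0.0119, edgeR), still past the test.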

How the results depend on the processing

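In col1-ACLP against col1, the member calls were 3 higher and 1 lower in every alternative that left out no library, and 3 to 4 higher and 1 lower when a library was left out. In col1-ACLP+SB against col1, 1 to 3 members were higher and 1 to 2 lower when a library was left out. There 1 was higher with library size alone and 1 with a replicate block, and 1 was lower with no filter. Members that passed the test and were higher by over 0.58 went from 0 to 1, in both comparisons with col1, without col1 replicate 2. Of the other Hippo genes, 4 were higher and 10 lower in col1-ACLP with library size alone, with 4 to 9 higher and 5 to 6 lower as libraries were left out. Against col1-ACLP, lower Hippo genes in col1-ACLP+SB numbered 3 with no filter, 5 with DESeq2 and 1 to 2 as libraries were left out (2 without col1-ACLP+SB replicate 3). For other targets the left-out ranges were 4 to 8 higher and 1 to 2 lower in col1-ACLP, 1 to 3 lower in col1-ACLP+SB (1 without col1 replicate 4), and 1 to 2 lower in col1-ACLP+SB against col1-ACLP (2 without col1 replicate 2 or 4), which gave 3 with no filter and 2 with DESeq2. Targets lower in col1-ACLP numbered 1 with no filter and 1 with a replicate block. The replicate block changed the Lats2 call in col1-ACLP+SB and no other member call. The cause of these moves was not tested. Member estimates changed sign in 5 fits, none of them called: Tead1 in col1-ACLP at -0.0067 with library size alone, and, with 1 library left out, Wwtr1 in col1-ACLP+SB (-0.056 to 0.0022) and, between the groups with ACLP, Amotl1 (-0.079 to 0.0021) and Ankrd1 (-0.095 to 0.70). Left-out estimates of 2 list genes not called there also crossed 0, Tead3 in col1-ACLP+SB against col1 (-0.16 to 0.011) and Ccn1 between the groups with ACLP (-0.16 to 0.0055). The alternatives for single list genes were chosen after seeing the data. Counts limit Ankrd1, at 6 to 70 per library.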
